A study of Homo sapiens with 35 samples.

Results

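The genes described here are 10 interferon-linked genes of the PARP and TRIM families: PARP9, PARP10, PARP12, PARP14, the PARP9 partner DTX3L, TRIM5, TRIM14, TRIM21, TRIM22 and TRIM25. They were chosen by name, with earlier results of these data known, as the rows of the deposited gene table that carry these names. They are thus 10 of its 28503 genes. All 10 were marked as quantified in every library, and all 10 were among the 15867 genes with enough counts to be tested. RNA was sequenced from DU145, a prostate cancer line established from a metastasis in the brain. Short hairpin RNAs in these cells targeted ZMYND8 (shZMYND8), JARID1D (shJARID1D) or, as the control, luciferase (shLuciferase), with 2 libraries in each group and 6 in all. ZMYND8 binds histones that carry particular marks, and JARID1D, made from the gene KDM5D, is a histone demethylase. The table names its shZMYND8 columns Rac7_KO, and they were taken as shZMYND8 because an antibody label of the series gives RACK7 as another name of ZMYND8. The labels give neither the number of hairpins per target nor whether the libraries of a group are separate cultures, so p-values reflect the spread among libraries that may be technical repeats. The other 29 samples of the series, chromatin immunoprecipitation and input, were not analysed here.

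Interferons signal through cell surface receptors to the transcription factor complex ISGF3, which binds the interferon-stimulated response element (ISRE) in front of its target genes. Among those targets are several PARP genes, whose products attach ADP-ribose to proteins and in part bind it through macrodomains, and several TRIM genes, most of whose products are ubiquitin ligases of antiviral defence. PARP9 and the ubiquitin ligase DTX3L form a complex and are encoded head to head, with PARP14 nearby on the same chromosome. TRIM5, TRIM22 and their relatives TRIM6 and TRIM34 form a gene cluster of their own.

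The promoters were searched for the ISRE because the genes are grouped by their link to interferon. RefSeq promoters of the build GRCh38.p14, from 250 bases before to 50 bases after each annotated start, were matched for 8 genes with 9 starts. PARP10 and TRIM22 are named only. The letters sought, on both strands, were GAAA, 2 free bases and GAAA again. They were present in 7 of these 8 genes, against 1195 of all 27305 genes (4.38%). By promoter they were present in 7 of the 9, against 1255 of 35116 in the whole RefSeq table (3.57%). The match of PARP9 and that of DTX3L are a single site, counted for both genes. The genes were grouped by their link to interferon, so setting them beside these shares is no test. The stretches around the matches are given 5′ to 3′ on the strand of the gene, with the matched letters in capitals. Where the match lies on the opposite strand the capitals show its reverse complement.
PARP9: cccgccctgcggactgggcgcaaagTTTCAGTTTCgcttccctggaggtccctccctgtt
DTX3L: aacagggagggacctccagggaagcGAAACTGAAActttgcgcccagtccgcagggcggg
PARP12: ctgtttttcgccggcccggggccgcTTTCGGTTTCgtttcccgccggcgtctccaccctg
PARP14: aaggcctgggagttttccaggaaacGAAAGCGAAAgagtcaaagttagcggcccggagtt
TRIM5: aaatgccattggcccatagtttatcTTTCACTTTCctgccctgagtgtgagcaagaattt
TRIM14: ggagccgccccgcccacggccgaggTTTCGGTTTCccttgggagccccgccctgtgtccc
TRIM21: ctgagcgGAAACTGAAAGTGAAAtagggag

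The PARP9 and DTX3L lines are the same bases read in both directions, chr3:122564307-122564366 of GRCh38.p14, minus strand for PARP9 and plus strand for DTX3L. Their annotated starts lie 38 bases apart, their promoter windows overlap by 137 bases, and a single match at chr3:122564332-122564341 falls in both. PARP9 has a further annotated start, whose promoter held no match. The other stretches are chr7:140062927-140062986 (minus strand) for PARP12, chr3:122680785-122680844 (plus) for PARP14, chr11:5685067-5685126 (minus) for TRIM5, chr9:98119214-98119273 (minus) for TRIM14 and chr11:4393663-4393692 (minus) for TRIM21. Counted from the annotated start, with 1 as the first transcribed base, the match spanned -41 to -32 in PARP9, -6 to 4 in DTX3L, -10 to -1 in PARP12, -29 to -20 in PARP14, -27 to -18 in TRIM5 and -26 to -17 in TRIM14. TRIM21 held a pair of overlapping matches after its start, at 18 to 27 and 24 to 33. TRIM25 held none of these letters in its window. The letters TTC, 3 free bases and GAA are a form of the interferon-gamma-activated (GAS) element. They were present in PARP14 alone of the 8 genes (-40 to -32, no overlap with its ISRE match), against 9.38% of all genes and 7.66% of all promoters. Of the other PARP family genes with a promoter in the table, 0 of 11 held the ISRE letters, and of the other TRIM genes 6 of 42 did (14.3%). Of the interferon receptor, STAT and IRF genes with a promoter in the table, 0 of 11 held them. A match describes the letters only and is no evidence of a bound site.

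**Figure D1:**
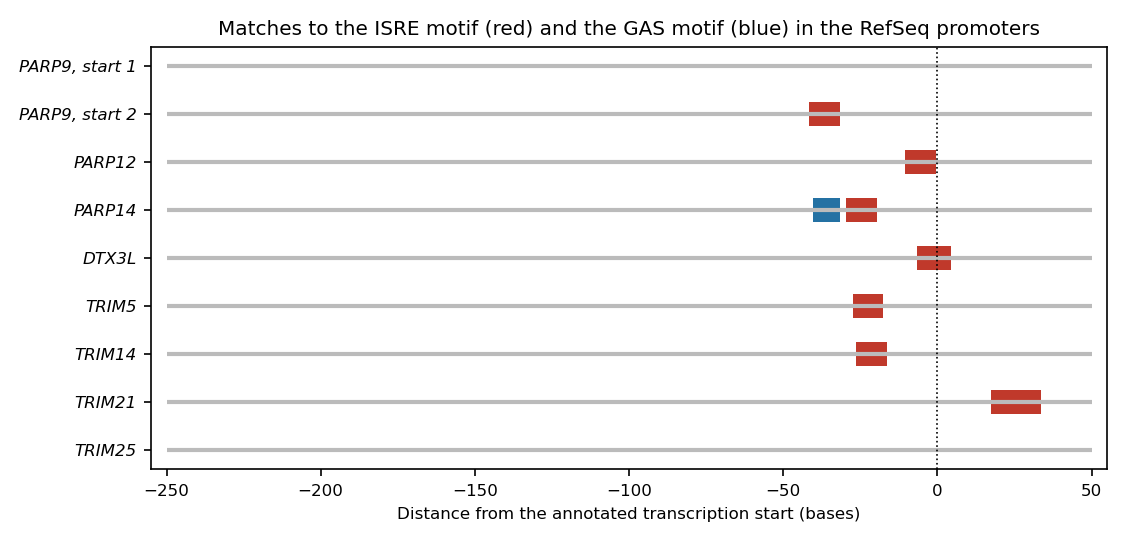
Positions of ISRE letters (red) and GAS letters (blue) in the RefSeq promoters of 8 genes; the x axis is the distance from the annotated start in bases and each grey line is a promoter window from 250 bases before to 50 bases after the start. The ISRE matches lie between -41 and 33, and the windows of TRIM25 and of the further PARP9 start hold none.

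The deposited estimated counts summed to 22925611 to 25001300 per library. Before the scaling that the deposited values carry, this corresponds to 25.9 and 27.4 M fragments in shZMYND8, 23.0 and 20.7 M in shJARID1D, and 23.9 and 24.8 M in shLuciferase. Depth in fragments thus ran in the order shZMYND8, shLuciferase, shJARID1D without overlap. Levels are given as CPM, deposited counts per 1 M of a library, after scaling by the trimmed mean of M values, and they are not divided by gene length, so levels of different genes are not compared. With no fragment counted, a level of up to 0.109 to 0.145 CPM remains possible, depending on the library and for counting error only. That limit is per 1 M of deposited counts without the trimmed mean scaling, so it differs slightly in scale from the levels. ZMYND8 stood at 35.5 and 33.2 CPM in shZMYND8, against 64.7 and 52.7 CPM in shLuciferase. The log2 fold change was -0.77 ± 0.13 (edgeR adjusted p = 0.00491, or 0.0581 without shZMYND8 replicate 2). KDM5D stood at 19.6 and 17.9 CPM in shJARID1D, against 58.1 and 61.0 CPM in shLuciferase (-1.67 ± 0.12, edgeR adjusted p = 0.000831). Throughout, differences are on the log2 scale with their standard errors (2 libraries a group). P-values from edgeR's quasi-likelihood test were adjusted by the Benjamini-Hochberg method over the 15867 genes, with a threshold of 0.05. The standard errors were derived from the log2 fold change and the F statistic of that test. Its spread is estimated over all 6 libraries, so they are not the spread of the 2 libraries of a group. Epithelial markers (KRT8, KRT18, KRT19, EPCAM, CDH1) were all present, with summed levels of 1100 to 1222 CPM in shZMYND8, 963 to 1131 CPM in shJARID1D and 1321 to 1862 CPM in shLuciferase. In shZMYND8 against shLuciferase KRT19 and EPCAM fell and CDH1 rose, the last of these calls being lost without either shZMYND8 library. In shJARID1D against shLuciferase 2 of the 5 were called lower and 0 higher, where 2.79% of all genes tested were called lower. Those 2 calls were lost without either shJARID1D library. Of 6 leukocyte markers, 4 had at most 3 fragments in each library. The leukocyte list summed to 46.0 to 57.2 CPM in shZMYND8, 44.6 to 44.8 CPM in shJARID1D and 36.1 to 42.5 CPM in shLuciferase, and the stromal list to 6.74 to 7.37 CPM in shZMYND8, 3.52 to 5.44 CPM in shJARID1D and 2.27 to 3.15 CPM in shLuciferase. Of 4 stromal markers tested, 1 was called higher in shZMYND8 against shLuciferase, where 8.89% of all genes tested were. All 4 differences were positive, with a median of 1.63, and the call was lost without either shZMYND8 library. Of 2 leukocyte markers tested, 0 were called there. The part of these marker shifts in the results was not tested. In bulk RNA, a change in the share of cells that use a gene and a change in RNA per cell cannot be told apart.

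All 10 genes rose in shZMYND8 compared with shLuciferase, the comparison that asks what they do after knockdown of ZMYND8. Over all genes tested, 8.89% were called higher and 7.34% lower in this comparison. The 10 genes were chosen with earlier results of these data known, so setting them beside that share is no test. The log2 fold changes ran from 0.58 for TRIM25 to 5.24 for TRIM22, with a median of 1.54, beside a median of -0.01 over all genes tested. Both shZMYND8 libraries stood above both shLuciferase libraries for every one of the 10, a pattern that 30.01% of all genes tested showed. Without shZMYND8 replicate 1, 8 of the 10 passed: TRIM5 had a log2 fold change of 0.47 with an adjusted p of 0.159, and TRIM25 of 0.49 with an adjusted p of 0.116. With any of the other 5 libraries left out all 10 passed. In shJARID1D compared with shLuciferase all 10 log2 fold changes were positive as well, with a median of 0.85 beside 0.00 over all genes, but only PARP9, PARP10 and TRIM14 passed the threshold.

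**Figure D2:**
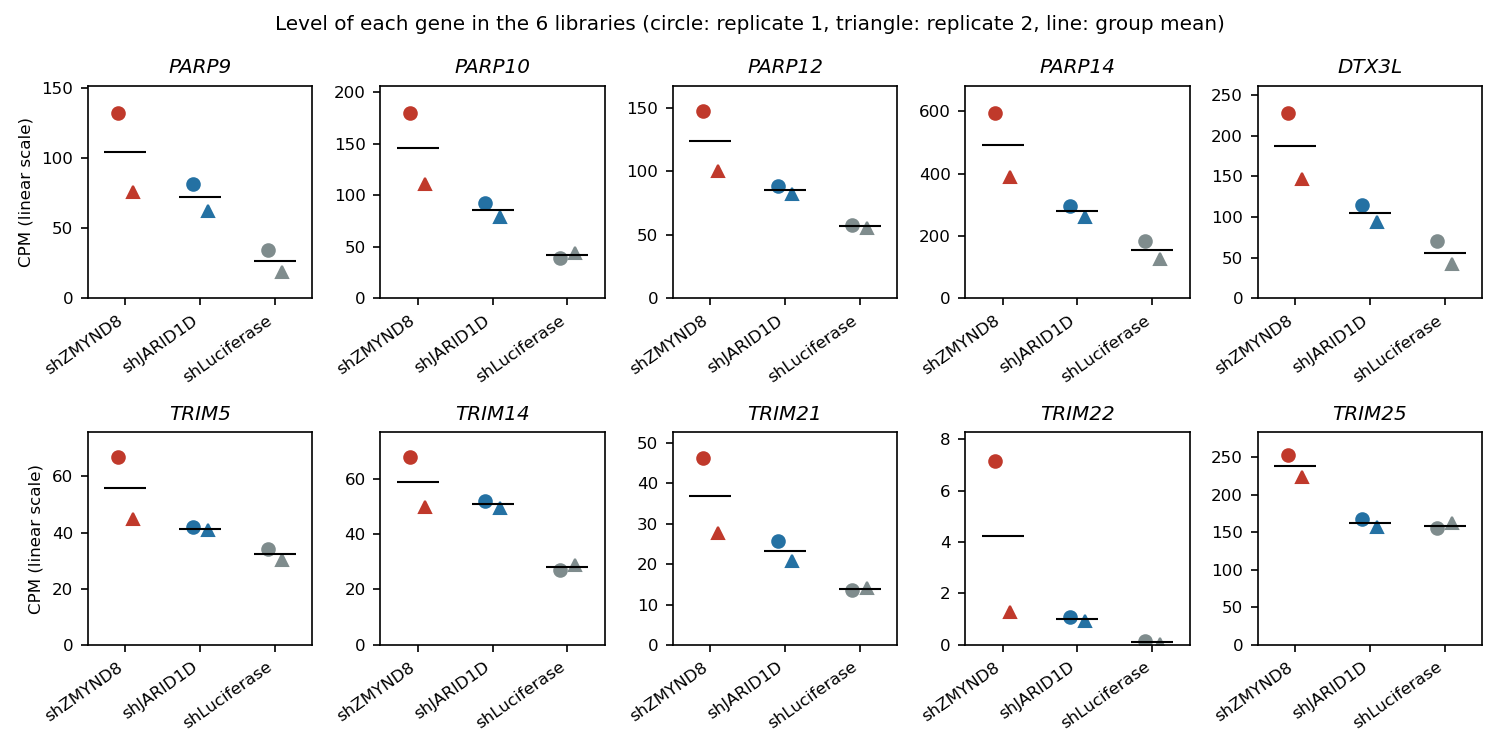
CPM (linear scale from 0) of each gene in the 6 libraries, shZMYND8 (red), shJARID1D (blue) and shLuciferase (grey); circles are replicate 1, triangles replicate 2 and lines group means. Group means run in the order shZMYND8, shJARID1D, shLuciferase for all 10 genes, and shZMYND8 replicate 1 is the highest library for each.

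PARP9 binds ADP-ribose through macrodomains and acts with DTX3L, the ubiquitin ligase of the pair. PARP9 had 132 and 76.3 CPM in shZMYND8, 81.9 and 62.5 CPM in shJARID1D, and 34.6 and 18.7 CPM in shLuciferase. Both knockdowns lay above both control libraries, while the shZMYND8 and shJARID1D libraries overlapped. It was 3.91-fold higher in shZMYND8 (1.97 ± 0.31, edgeR adjusted p = 0.00315) and 2.71-fold higher in shJARID1D (1.44 ± 0.31, edgeR adjusted p = 0.0297) than in the control. DTX3L had 228 and 147 CPM in shZMYND8, 115 and 93.6 CPM in shJARID1D, and 70.4 and 42.2 CPM in shLuciferase. Its libraries fell into the order shZMYND8, shJARID1D, shLuciferase without overlap. DTX3L was 3.33-fold higher in shZMYND8 than in the control (1.73 ± 0.26, edgeR adjusted p = 0.00247). For shJARID1D its difference from shLuciferase was 0.89 ± 0.25 and did not pass (edgeR adjusted p = 0.0711), although without shLuciferase replicate 1 it was 1.30 with an adjusted p of 0.00846. The control libraries of the pair differed in the same direction, replicate 1 above replicate 2. RefSeq annotates PARP9 and DTX3L as overlapping, and no source used here gives the strand setting of the counting, so reads of the shared stretch cannot be assigned to either gene with certainty.

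PARP14, a mono-ADP-ribosyltransferase with macrodomains, had 596 and 391 CPM in shZMYND8, 297 and 261 CPM in shJARID1D, and 185 and 126 CPM in shLuciferase. The 3 groups did not overlap, and the 2 shZMYND8 libraries stood furthest apart. PARP14 rose 3.17-fold in shZMYND8 (1.67 ± 0.22, edgeR adjusted p = 0.00156), and in shJARID1D its difference from shLuciferase was 0.84 ± 0.22 (edgeR adjusted p = 0.0544). Without shLuciferase replicate 1 that difference was 1.15, with an adjusted p of 0.0107. PARP10, another mono-ADP-ribosyltransferase, had 180.03 and 111 CPM in shZMYND8, 92.0 and 79.2 CPM in shJARID1D, and 39.2 and 44.4 CPM in shLuciferase. No library of a group reached into the next group. PARP10 rose in both knockdowns, by 1.80 ± 0.21 in shZMYND8 (3.48-fold, edgeR adjusted p = 0.000817) and by 1.03 ± 0.20 in shJARID1D (edgeR adjusted p = 0.0234). It overlaps GRINA and SPATC1 in the annotation, so its counts may hold reads of those genes. PARP12 carries zinc fingers of the kind that bind RNA, and had 147 and 100.5 CPM in shZMYND8, 88.3 and 82.3 CPM in shJARID1D, and 58.0 and 55.3 CPM in shLuciferase. Its groups were separate too, the lower shZMYND8 library lying close above the shJARID1D libraries. PARP12 rose 2.19-fold in shZMYND8 (1.13 ± 0.17, edgeR adjusted p = 0.0025) and differed by 0.59 ± 0.17 in shJARID1D without passing (edgeR adjusted p = 0.0693).

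Of the TRIM genes, TRIM22 and TRIM5 encode restriction factors of the chromosome 11 cluster, and TRIM5 acts on retroviral capsids. TRIM22 was counted with 181 and 34 fragments in shZMYND8, 25 and 19 in shJARID1D, and 4 and 1 in shLuciferase. The corresponding levels were 7.16 and 1.29 CPM in shZMYND8, 1.07 and 0.943 CPM in shJARID1D, and 0.170 and 0.043 CPM in shLuciferase. The order of the groups was kept by every library, but shZMYND8 replicate 1 stood far above all others. The 1 fragment of shLuciferase replicate 2 lay below the limit of 3 fragments behind a count of 0. Summed over libraries, the ratio of shZMYND8 to shLuciferase was 39.2 (95% interval 16.5 to 122, counting error only) and that of shJARID1D to shLuciferase was 9.78 (3.89 to 31.6). The fitted difference in shZMYND8 was 5.24 ± 0.93 (edgeR adjusted p = 0.00549), and it depends on single libraries: it was 3.53 without shZMYND8 replicate 1 and 6.45 without shLuciferase replicate 1. For shJARID1D it was 3.18 ± 1.06 and did not pass (edgeR adjusted p = 0.109), although it passed with an adjusted p of 0.0457 or 0.0336 when shZMYND8 replicate 1 or 2 was left out. TRIM5 had 67.0 and 44.7 CPM in shZMYND8, 41.9 and 40.8 CPM in shJARID1D, and 34.3 and 30.4 CPM in shLuciferase. These groups were separate but close together. TRIM5 was 1.73-fold higher in shZMYND8 (0.79 ± 0.18, edgeR adjusted p = 0.0157), a call that rested on shZMYND8 replicate 1 as given above. Its difference in shJARID1D was 0.36 ± 0.18 (edgeR adjusted p = 0.265). TRIM5 overlaps TRIM6, TRIM34 and their read-through gene, so its counts are uncertain in the same way.

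TRIM21, a cytosolic antibody receptor and ubiquitin ligase, had 46.2 and 27.6 CPM in shZMYND8, 25.8 and 20.8 CPM in shJARID1D, and 13.6 and 14.2 CPM in shLuciferase. The groups did not overlap, and the control libraries lay close together. TRIM21 was 2.66-fold higher in shZMYND8 (1.41 ± 0.22, edgeR adjusted p = 0.00326) and differed by 0.75 ± 0.22 in shJARID1D (edgeR adjusted p = 0.081). TRIM14, an adaptor of antiviral signalling at mitochondria, had 67.6 and 49.6 CPM in shZMYND8, 51.9 and 49.4 CPM in shJARID1D, and 26.95 and 28.9 CPM in shLuciferase. Here the 2 knockdowns overlapped each other and both lay above the control. TRIM14 rose by 1.07 ± 0.15 in shZMYND8 (2.10-fold, edgeR adjusted p = 0.00221) and by 0.86 ± 0.15 in shJARID1D (edgeR adjusted p = 0.0181). It overlaps NANS in the annotation, and TRIM25 overlaps the microRNA gene MIR3614. TRIM25, a ubiquitin ligase that acts on the RNA sensor RIG-I, had 253 and 223 CPM in shZMYND8, 168 and 157 CPM in shJARID1D, and 156 and 163 CPM in shLuciferase. The shJARID1D and control libraries overlapped, and the shZMYND8 libraries stood above both. TRIM25 was 1.5-fold higher in shZMYND8 (0.58 ± 0.12, edgeR adjusted p = 0.00994), a call lost without shZMYND8 replicate 1 as given above. In shJARID1D its difference was 0.03 ± 0.12 (edgeR adjusted p = 0.911), and the sign turned without shJARID1D replicate 1 or shLuciferase replicate 1.

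**Figure D3:**
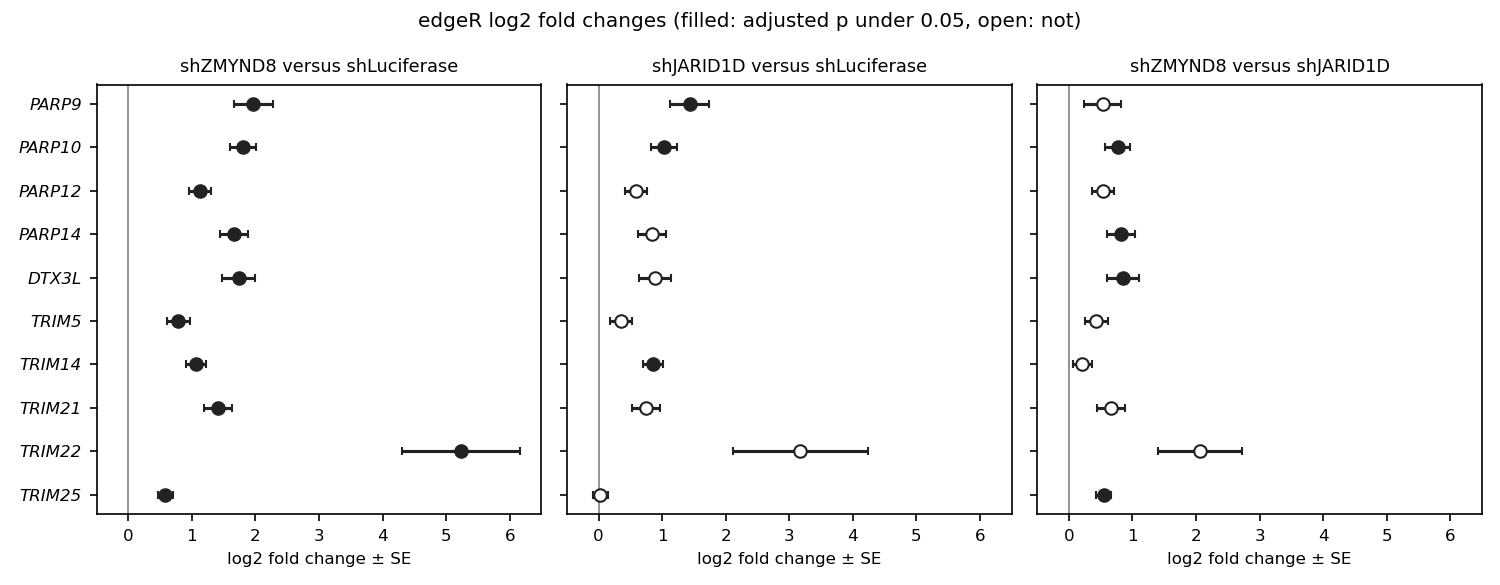
Log2 fold changes with standard errors of the 10 genes in shZMYND8 against shLuciferase, shJARID1D against shLuciferase, and shZMYND8 against shJARID1D; filled points have an edgeR adjusted p under 0.05. All 10 points are filled in the first panel, 3 in the second and 4 in the third, and all lie above 0.

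In shJARID1D compared with shLuciferase, 3 of the 10 genes thus rose, and over all genes tested 2.96% were called higher and 2.79% lower. The share of calls that were higher was 51.4%, against 70.7% with scaling by library totals and 61.7% with upper quartile scaling. At an unadjusted p under 0.05, 8 of the 10 were higher, against 11.84% of all genes tested. Both shJARID1D libraries lay above both control libraries for 9 of the 10 (27.02% of all genes tested), TRIM25 being the exception. The count of 3 rests on the libraries used. Calls over all genes also fell sharply when either shJARID1D library was left out, so a loss there is not particular to these 10 genes. Without shJARID1D replicate 1 or replicate 2, 0 genes passed in edgeR, with 7 and 8 higher at an unadjusted p under 0.05, against 6.939% and 8.829% of all genes tested. The adjusted p of PARP9 was then 0.173 and 0.0787, that of PARP10 0.165 and 0.0787, and that of TRIM14 0.135 and 0.0887. Without shLuciferase replicate 1, or without either shZMYND8 library, 5 passed. Over all genes, more were called higher without shLuciferase replicate 1 and fewer without either shZMYND8 library. DESeq2 called 7 of the 10 and limma voom 4, where they called 585 and 405 of all 15867 genes tested higher. Both comparisons with shLuciferase share their control libraries, so their like direction is no independent repeat.

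Whether the genes differed between the knockdowns was tested directly. PARP10 (0.77 ± 0.20, adjusted p = 0.031), PARP14 (0.82 ± 0.22, adjusted p = 0.0334), DTX3L (0.85 ± 0.25, adjusted p = 0.0482) and TRIM25 (0.55 ± 0.12, adjusted p = 0.0141) were higher in shZMYND8 than in shJARID1D by edgeR. That is 4 of 10 genes, where 8.67% of all genes tested were called higher and 7.02% lower (55.3% of calls higher, against 45.0% with scaling by library totals). The other 6 had positive differences that did not pass, from 0.21 ± 0.15 for TRIM14 (edgeR adjusted p = 0.374) to 2.06 ± 0.67 for TRIM22 (edgeR adjusted p = 0.0633), and the median over the 10 was 0.61 beside 0.00 over all genes. For 8 of the 10 both shZMYND8 libraries lay above both shJARID1D libraries (32.71% of all genes tested), the exceptions being PARP9 and TRIM14. These calls too depend on single libraries. Calls over all genes also fell when any library of either knockdown was left out, so a loss there is not particular to these 10 genes. Without shZMYND8 replicate 1, shJARID1D replicate 1 or shJARID1D replicate 2, 0 genes passed in edgeR, with 1, 7 and 4 of the 10 higher at an unadjusted p under 0.05. Of all genes tested in those fits, 11.07%, 11.99% and 10.82% were higher at that level, so the 1 of 10 is close to the share over all genes. Without either shLuciferase library 7 passed, and without shZMYND8 replicate 2, 5 passed, DTX3L and TRIM25 then each having an adjusted p of 0.0575. Over all genes, more were called higher without either shLuciferase library as well. DESeq2 called 6 of the 10 and limma voom 3, where they called 1419 and 1375 of all 15867 genes tested higher.

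The 2 libraries of a group did not differ evenly for these genes. In shZMYND8 replicate 1 was above replicate 2 for all 10, by a ratio of 1.13 to 5.55 with a median of 1.54, whereas over all genes tested the median ratio was 0.998 and 48.4% were higher in replicate 1. In shJARID1D replicate 1 was also higher for all 10, by 1.03 to 1.31 with a median of 1.14, against 49.8% of all genes tested. In shLuciferase it was higher for 6 of the 10, with ratios of 0.882 to 3.98 and a median of 1.09. That count is near the 49.8% of all genes tested that were higher in shLuciferase replicate 1. TRIM22 gave the widest ratio in shZMYND8 and in shLuciferase, and the widest without it were 1.73 and 1.85. ZMYND8 itself differed little between the shZMYND8 libraries (35.5 and 33.2 CPM). Leaving out shZMYND8 replicate 1 brought the median log2 fold change of the 10 against shLuciferase to 1.16, and leaving out replicate 2 to 1.83.

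**Figure D4:**
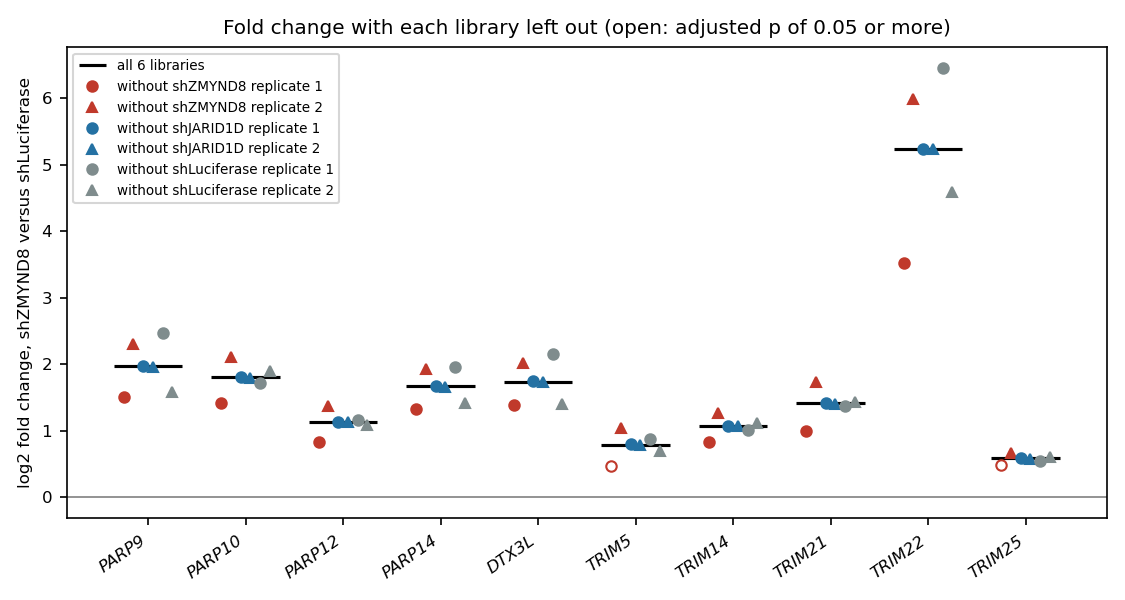
Log2 fold change of each gene in shZMYND8 against shLuciferase with all 6 libraries (line) and with each library left out in turn (points; open points have an edgeR adjusted p of 0.05 or more). All points lie above 0, and the 2 open points are TRIM5 and TRIM25 without shZMYND8 replicate 1.

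The location of the genes was compared with how their neighbours moved, using the gene order of the RefSeq table. The chromosome 3 genes PARP9, DTX3L and PARP14 rose in shZMYND8, while none of their flanking genes passed: KPNA1 differed by -0.12 ± 0.12 (edgeR adjusted p = 0.528), WDR5B by 0.24 ± 0.26 (adjusted p = 0.582), HSPBAP1 by 0.37 ± 0.24 (adjusted p = 0.32) and DIRC2 by -0.20 ± 0.15 (adjusted p = 0.391). PARP15, which lies between DTX3L and PARP14, had too few counts to test. On chromosome 11 the order is TRIM5, TRIM6, TRIM6-TRIM34, TRIM34 and TRIM22. TRIM34 had 12.2 and 7.13 CPM in shZMYND8 against 4.51 and 1.41 CPM in shLuciferase, so its libraries were separate, and it rose by 1.70 ± 0.47 (edgeR adjusted p = 0.0345). That call was lost without shZMYND8 replicate 1, shZMYND8 replicate 2 or shLuciferase replicate 2, with adjusted p of 0.24, 0.0587 and 0.0717. TRIM6 stood at 20.3 and 22.6 CPM in shZMYND8 against 28.3 and 27.3 CPM in shLuciferase, a difference of -0.37 ± 0.14 that did not pass (edgeR adjusted p = 0.0973), and the read-through gene TRIM6-TRIM34 differed by -0.27 ± 0.30 (adjusted p = 0.595). The libraries of the read-through gene overlapped in that comparison, and in shJARID1D it differed from shLuciferase by 0.67 ± 0.29 with both libraries above the control, without passing (edgeR adjusted p = 0.195). In all, 21 neighbours that are not members were tested. Over all genes tested, 8.89% were called higher in shZMYND8 and 2.79% lower in shJARID1D, each against shLuciferase. Between shZMYND8 and shJARID1D 8.67% were called higher and 7.02% lower. The counts of neighbours were not tested against these shares. GRINA overlaps PARP10 and TRIM34 overlaps TRIM5 in the annotation, so counts of GRINA and TRIM34 may hold reads of PARP10 and TRIM5. In shZMYND8 against shLuciferase 3 of the 21 were higher, GRINA (0.43 ± 0.12), HIPK2 (0.41 ± 0.12) and TRIM34, with a median difference of -0.03 over the 21. In shJARID1D 1 was lower, PLEC (-0.70 ± 0.17, edgeR adjusted p = 0.0438). The calls of GRINA, HIPK2 and PLEC were each lost when any of several libraries was left out, with adjusted p of up to 0.266, 0.208 and 0.264. Between shZMYND8 and shJARID1D GRINA and HIPK2 were higher and COIL was lower (-0.43 ± 0.11, edgeR adjusted p = 0.0311), and all 3 calls were lost without any library of either knockdown.

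**Figure D5:**
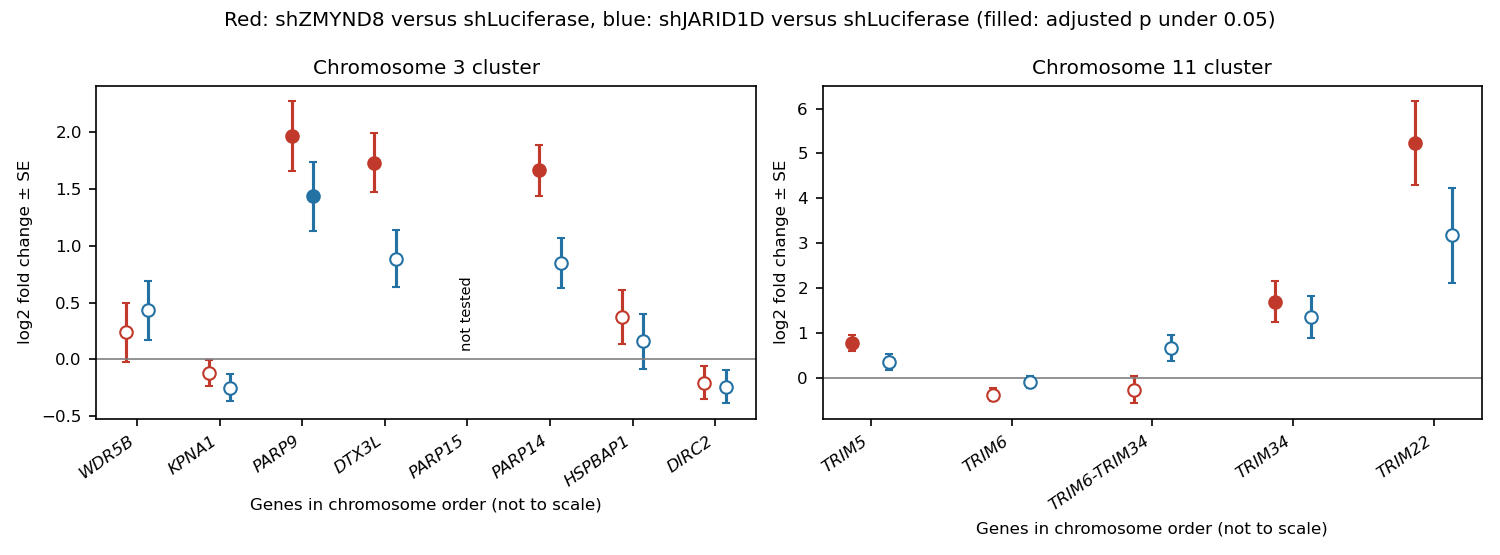
Log2 fold changes with standard errors, in chromosome order and not to scale, of the genes around PARP9, DTX3L and PARP14 and of the TRIM5 to TRIM22 cluster; red is shZMYND8 and blue shJARID1D, each against shLuciferase, and filled points have an edgeR adjusted p under 0.05. The flanking genes of chromosome 3 lie between -0.25 and 0.43, below the 3 member genes.

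Other members of the PARP family were examined in shZMYND8. Over all genes tested, 8.89% were called higher and 7.34% lower there against shLuciferase, and 8.67% higher and 7.02% lower against shJARID1D. Of 12 other PARP genes tested, 2 rose and the other 10 did not pass, with a median difference of -0.07. They were PARP3, a nuclear enzyme of DNA repair (19.2 and 14.9 CPM in shZMYND8 against 12.1 and 10.8 CPM in shLuciferase, 0.57 ± 0.17, edgeR adjusted p = 0.0492), and ZC3HAV1, the zinc finger antiviral protein (558 and 488 CPM against 379 and 303 CPM, 0.62 ± 0.14, edgeR adjusted p = 0.0152). Without shZMYND8 replicate 1 neither passed, with adjusted p of 0.364 and 0.143, and PARP3 was also lost without any library but shLuciferase replicate 1. In shJARID1D 0 of the 12 passed in edgeR, DESeq2 or limma voom, with 2 at an unadjusted edgeR p under 0.05, until shLuciferase replicate 1 was left out, when 1 passed. Against shJARID1D, PARP4 (-0.39 ± 0.11, adjusted p = 0.0406) and TIPARP (-0.46 ± 0.12, adjusted p = 0.0357) were lower in shZMYND8 by edgeR, and both calls were lost without any library of either knockdown. Among 8 hydrolases and readers of ADP-ribose, OARD1, which removes ADP-ribose from glutamate, was the only gene past the threshold in shZMYND8 against shLuciferase (8.27 and 8.89 CPM against 14.3 and 12.8 CPM, -0.66 ± 0.15, edgeR adjusted p = 0.0153). It lost the call without either shZMYND8 library, with adjusted p of 0.136 and 0.08. OARD1 and MACROD1 were lower in shZMYND8 than in shJARID1D (-0.82 ± 0.15 and -1.06 ± 0.26, edgeR adjusted p = 0.00735 and 0.0241), calls that were lost without any library of either knockdown.

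The deltex relatives of DTX3L were examined next. Over all genes tested, 2.79% were called lower in shJARID1D against shLuciferase, and 8.67% higher in shZMYND8 against shJARID1D. Of the 4 deltex genes tested, 0 passed in shZMYND8 against shLuciferase in edgeR, DESeq2 or limma voom, with 1 at an unadjusted edgeR p under 0.05. DTX2, a ligase linked to Notch signalling, had 17.7 and 18.8 CPM in shJARID1D against 27.7 and 38.3 CPM in shLuciferase and fell there by 0.85 on the log2 scale (SE 0.16, edgeR adjusted p = 0.02). That call was lost without shJARID1D replicate 1 or replicate 2, with adjusted p of 0.165 and 0.0959. DTX2 had 39.2 and 40.7 CPM in shZMYND8, above shJARID1D by 1.13 ± 0.16 (edgeR adjusted p = 0.00255), and DTX4 was above it by 0.74 ± 0.18 (edgeR adjusted p = 0.0261), a DTX4 call that was lost without shZMYND8 replicate 2 or either shJARID1D library.

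Over all genes tested, 8.89% were called higher in shZMYND8 and 2.96% in shJARID1D, each against shLuciferase. Of 44 other TRIM genes tested, 12 rose in shZMYND8 against shLuciferase and the other 32 did not pass, with a median difference of 0.18. The 4 with the smallest adjusted p were TRIM16, PML, TRIM9 and TRIM56. PML, the scaffold of nuclear bodies, had 82.5 and 68.7 CPM in shZMYND8 against 36.4 and 36.5 CPM in shLuciferase (1.05 ± 0.13, edgeR adjusted p = 0.000975). TRIM56, a ligase of antiviral signalling, had 59.3 and 54.4 CPM in shZMYND8 against 31.0 and 34.2 CPM in shLuciferase (0.80 ± 0.13, edgeR adjusted p = 0.00312). For both genes the knockdown libraries were well separated from the controls. TRIM9, a ligase best known from neurons, rose by 1.68 ± 0.22 (adjusted p = 0.00142), and TRIM16 by 1.19 ± 0.11 (adjusted p = 0.0005) by edgeR. TRIM16 has a near copy, TRIM16L, which makes its counts uncertain. These 4 passed with any single library left out, whereas the count of 12 became 4 without shZMYND8 replicate 1 and 7 without shZMYND8 replicate 2. In shJARID1D 3 rose: TRIM9 (1.42 ± 0.22, adjusted p = 0.0132), TRIM38 (0.74 ± 0.18, adjusted p = 0.0433) and TRIM69 (0.81 ± 0.20, adjusted p = 0.0438) by edgeR. Without shJARID1D replicate 1 none of the list passed, with adjusted p of 0.11, 0.214 and 0.23 for these genes, and without shJARID1D replicate 2 only TRIM9 did. TRIM38 and TRIM69 also missed the threshold without shLuciferase replicate 2 (adjusted p of 0.0857 and 0.0911) and TRIM38 without either shZMYND8 library (0.0511 and 0.055), while 5 of the list passed without shLuciferase replicate 1. Over all genes tested, 8.67% were called higher and 7.02% lower in shZMYND8 against shJARID1D, and the 4 higher of 44 TRIM genes are close to that share. Between the knockdowns TRIM16, PML, TRIM56 and TRIM62 were higher in shZMYND8 and TRIM24 was lower (-0.50 ± 0.11, edgeR adjusted p = 0.0188). Of these, TRIM16 kept its call with any single library left out, and PML, TRIM56, TRIM62 and TRIM24 lost theirs without shZMYND8 replicate 1 or either shJARID1D library. Without shZMYND8 replicate 2, TRIM56 (adjusted p = 0.138), TRIM62 (0.222) and TRIM24 (0.104) lost theirs as well. The count of 4 higher was 1 without any of those 3 libraries, 2 without shZMYND8 replicate 2 and 7 without either shLuciferase library.

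Genes that carry the interferon signal were followed in the same libraries. Of 16 receptors, STAT and IRF genes tested, 7 rose in shZMYND8 against shLuciferase and the other 9 did not pass, with a median difference of 0.48. Over all genes tested, 8.89% were called higher there, 2.96% in shJARID1D against shLuciferase and 8.67% in shZMYND8 against shJARID1D. IRF7, the factor that amplifies interferon transcription, had 123 and 62.8 CPM in shZMYND8 against 15.4 and 16.3 CPM in shLuciferase (2.56 ± 0.27, edgeR adjusted p = 0.000601). IRF9, the DNA-binding subunit of the ISGF3 complex, had 61.8 and 41.9 CPM in shZMYND8 against 24.7 and 17.1 CPM in shLuciferase (1.31 ± 0.21, edgeR adjusted p = 0.0033). Each shZMYND8 library was above each control library for both genes. IRF1 rose by 1.25 ± 0.14 (adjusted p = 0.000755) and the receptor gene IFNAR2 by 0.94 ± 0.13 (adjusted p = 0.00153) by edgeR. STAT2, another subunit of that complex, chosen for naming after its value was seen, rose by 1.09 ± 0.22 (edgeR adjusted p = 0.00951), and did not pass without shZMYND8 replicate 1 (adjusted p = 0.0904). In shJARID1D 3 rose: IRF7 (65.3 and 56.6 CPM, 1.95 ± 0.27, adjusted p = 0.00805), IRF9 (59.9 and 59.7 CPM, 1.52 ± 0.21, adjusted p = 0.00833) and IRF1 (75.2 and 71.2 CPM, 0.65 ± 0.14, adjusted p = 0.0297) by edgeR. Without shJARID1D replicate 1 none of the 3 passed, with adjusted p of 0.0662, 0.0662 and 0.2, and without shJARID1D replicate 2 only IRF7 did. Without shLuciferase replicate 1 the count was 6 and without shZMYND8 replicate 1 it was 5. The order of the groups for IRF9 differed from that of the 10 genes. Its difference from shLuciferase was larger in shJARID1D (1.52 ± 0.21) than in shZMYND8 (1.31 ± 0.21). Both shJARID1D libraries of IRF9 lay within the range of the shZMYND8 libraries. Between the knockdowns IL10RB (0.60 ± 0.13, adjusted p = 0.018), IRF1 (0.60 ± 0.14, adjusted p = 0.0188) and IFNAR2 (0.51 ± 0.12, adjusted p = 0.0236) were higher in shZMYND8 by edgeR. IL10RB encodes a chain shared by the receptors of interferon lambda and interleukin 10, and all 3 calls were lost without shZMYND8 replicate 1 or either shJARID1D library. Without shZMYND8 replicate 2, IL10RB (adjusted p = 0.0603) and IFNAR2 (adjusted p = 0.182) lost theirs too, and 2 genes of the list passed, IRF1 among them. Without either shLuciferase library 6 passed.

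Likeness of pattern was measured as the root mean square difference of centred log2 CPM over the 6 libraries, so that 0 is an identical profile. A small constant was added to the counts before the logarithm, which flattens the profiles of genes with few counts, TRIM22 among them. Among all genes tested, the gene nearest to PARP14 was DTX3L and the gene nearest to DTX3L was PARP14, at 0.072 on the log2 scale, ahead of the RNA sensor gene DHX58 for PARP14 (0.075) and of the antiviral gene IFIT3 for DTX3L (0.083). PARP9, which shares the promoter window with DTX3L, ranked 52 among the genes nearest to DTX3L, at 0.24. Its own nearest gene was CYP4F3 (0.106), followed by SAMD9 and TRANK1. PARP12 was nearest to PSMB8, a subunit of the immunoproteasome (0.035), and PARP10 to HLA-F (0.099), a gene with close HLA relatives, among which reads may be divided. The nearest genes to TRIM22 were IFI27 (0.216), OAS2 and BST2, all known as interferon-stimulated. TRIM21 was nearest to FAAH2 (0.101), NMI and NLRC5, and TRIM5 to PNPT1 (0.073). TRIM14 was nearest to EGLN3 (0.066), an oxygen-sensing hydroxylase, and TRIM25 to LOC151760 (0.040). Genes with few counts, at 1.63 CPM or less in every library, were also among the 3 nearest. They were LOC151760 for TRIM25, TRABD2B for PARP14 (0.081), FAM86HP for PARP12 (0.076), LMCD1-AS1 for PARP10 (0.145) and AMDHD2 for TRIM14 (0.075). These distances are descriptions over 6 libraries that share their group means, and carry no test.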

How the data were processed

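The deposited gene table holds expected counts, that is fragment counts the authors estimated per gene and library, in the layout of a Cuffdiff count-tracking file, per the file headers. The submitters' processing notes list, with no role for any of them, edgeR 3.12.0, Cuffdiff, Bowtie 1.1.2 and TopHat2 2.0.12, as well as the build hg19. Annotation and strand setting: not given in the sources used here. Deposited values carry a scaling: a fragment is worth 0.882 to 1.16 depending on the library, and 84.0% to 84.9% of values divided by it lay within 0.05 of a whole number. Such estimates share out reads that match several near copies, which leaves those genes uncertain. The 18 columns of count variance and its parts were not used. Deposited quantification status words, which are neither counts nor scores, served only to leave out 60 genes marked HIDATA in any library.

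Counts were rounded, filtered by filterByExpr with the group, scaled by the trimmed mean of M values, and tested by the quasi-likelihood F test of edgeR 4.0.16 (R 4.3.3). The fit took in all 6 libraries. Its residual degrees of freedom were 3, its prior degrees of freedom 6.83, and the common biological variation 12.3%. The Benjamini-Hochberg method was applied over 15867 of 28443 genes, at a threshold of 0.05. CPM use the same factors (0.966 to 1.057). The code was tested on simulated data. Intervals on fragment ratios and the limit of 3 fragments behind a count of 0 cover counting error only.

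The members and lists were chosen with earlier results of these data known. Named genes are the members, both targets and up to 4 members of each companion list per comparison by smallest adjusted p. Others are from the 2 nearest protein-coding genes on each side of a member and the 3 nearest genes in pattern, not all of which are named. RefSeq tables (GRCh38.p14) gave gene order and promoter sequences only, since the counts use hg19. Alternatives were 3 other scalings, 2 other filters, DESeq2 1.42.0, limma voom (3.58.1), a replicate block, fits restricted to the compared groups, the deposited scaling undone, unquantified genes kept at 0, a threshold of 0.01, a log2 fold change of at least 1 and leaving out each library. Python 3.11.15, pandas 2.3.3, numpy 2.4.6 and matplotlib 3.10.9 prepared tables and figures. The prostate luminal markers and some other genes in the lists are not reported here.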

Additional observations from a re-analysis of the deposited data

How the results depend on the processing

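In shZMYND8 against shLuciferase, between 8 and 10 of the 10 genes passed under every alternative run, the low counts being 8 with a log2 fold change of at least 1, 9 at a threshold of 0.01 and 9 with a mean count of at least 50, a filter that removes TRIM22. In shJARID1D against shLuciferase (3 genes) the count was 7 with DESeq2, 5 with library totals only, 0 without a filter (8 higher at an unadjusted p under 0.05, against 8.85% of all genes), 7 with only the groups compared and 0 at a threshold of 0.01. In shZMYND8 against shJARID1D (4 genes) it was 0 with a log2 fold change of at least 1, 1 without a filter, 7 with only the groups compared and 0 at a threshold of 0.01. With each library left out in turn the counts ran from 8 to 10, from 0 to 5 and from 0 to 7. A group left with a single library is assumed to vary like the others. Signs turned in 3 cases, all far from the threshold: TRIM14 in shZMYND8 against shJARID1D was -0.0304 without shZMYND8 replicate 1 (-0.0304 to 0.415 over the libraries left out), and TRIM25 in shJARID1D was -0.0164 without shJARID1D replicate 1 and -0.0033 without shLuciferase replicate 1 (-0.0164 to 0.0764). Of the other fold changes recomputed under alternatives, 1166 stayed on their side of the threshold, 206 lost it and 44 gained it. The cause was not tested.

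Over all genes, shZMYND8 against shLuciferase gave 1410 higher and 1164 lower, 595 and 208 with a log2 fold change of at least 1, 615 and 387 at a threshold of 0.01, and 419 to 1605 higher and 223 to 1617 lower with a library left out. In shJARID1D against shLuciferase 469 were higher and 443 lower, 709 and 294 with library totals only, 190 and 49 with a log2 fold change of at least 1, 98 and 106 without a filter, 250 and 199 with only the groups compared, 36 and 41 at a threshold of 0.01, and 12 to 965 and 4 to 1180 with a library left out. DESeq2 called 585 higher and 774 lower there. In shZMYND8 against shJARID1D 1376 were higher and 1114 lower, 374 and 261 with a log2 fold change of at least 1, 860 and 700 without a filter, 2224 and 2028 with only the groups compared, 469 and 292 at a threshold of 0.01, and 352 to 2175 and 172 to 2016 with a library left out.

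Replicate numbers are shared by the groups, but the labels do not say that they pair libraries. Across 15867 genes the replicate differences correlated at 0.0969 between shZMYND8 and shJARID1D, 0.0925 between shZMYND8 and shLuciferase and 0.17 between shJARID1D and shLuciferase, with only 2 numbers. With a replicate block 10, 8 and 9 of the 10 genes passed in the 3 comparisons, and over all genes 1921 higher and 1778 lower, 1039 higher and 1034 lower, and 1993 higher and 1792 lower.

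The 2 libraries per group limit precision. At this depth TRIM22 rests on 5 control fragments.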
